A study of Mus musculus with 6 samples.

Results

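Stellate cells of the mouse liver held RNA of several membrane adenylyl cyclases, the enzymes that make cAMP, beside far more RNA of Gnas, the gene of the stimulatory G protein subunit Gs alpha. The 9 membrane cyclase genes Adcy1 to Adcy9 and Gnas were taken by gene symbol from a table of exon counts, as 10 of its 24940 rows, 1 row per gene. The study measured polyadenylated RNA in 6 bulk libraries of primary hepatic stellate cells from female wild-type C57BL6/JBomTac mice, whose age is not given in the sources used here. All cells were cultured for 2 days after isolation. Then 3 libraries came from cells given 5 µM forskolin for 3 h and 3 from cells given the solvent DMSO alone for 3 h. Replicates are lettered A, B and C in each group. Since no label ties a letter to an isolation or an animal, the p-values rest on spread between libraries that may be technical.

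Membrane adenylyl cyclases turn ATP into the second messenger cAMP when a hormone receptor loads Gs alpha with GTP. The isoforms differ in what else they sense: calcium with calmodulin stimulates AC1, AC3 and AC8, calcium inhibits AC5 and AC6, and G protein beta-gamma subunits stimulate AC2, AC4 and AC7 once Gs alpha is bound. Forskolin binds the cyclase itself between its catalytic domains and activates it without a receptor. AC9 is the membrane isoform known for its weak response to forskolin. In stellate cells, liver pericytes that store vitamin A, cAMP is known to restrain contraction and activation.

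Total counts ran from 2770628 to 10607997 per library, and both C libraries were the shallowest of their group. A floor of 3 counts, used as the detection limit, equals 0.279 to 0.438 CPM (read counts relative to the TMM-scaled library size) in the A and B libraries and 1.02 to 1.17 CPM in the C libraries. It covers counting error only, because the reads carry no molecular identifiers. As a check of the labels, Nr4a1, an orphan nuclear receptor gene known to respond to cAMP, stood at 42.6, 41.3 and 41.0 CPM in DMSO A, B and C and at 434, 413 and 517 CPM in forskolin A, B and C (edgeR adjusted p = 4.48e-07). Stellate cell markers summed to 1711 to 1812 CPM of the raw totals in DMSO and 1745 to 1992 CPM with forskolin, with 13 of 14 passing the filter on low counts. Markers of other liver cells were low. The largest such sums were 34.8 to 129 CPM over both groups for smooth muscle and portal fibroblast genes, 13.9 to 25.4 CPM in DMSO against 57.9 to 92.4 CPM with forskolin for endothelial genes, and 21.5 to 29.9 against 56.3 to 71.0 CPM for hepatocyte genes. Most of the smooth muscle and portal fibroblast sum came from Acta2, at 18.9 to 85.8 CPM, and Fbln2, at 6.11 to 34.8 CPM. The other genes of that list each stayed at or under 6.50 CPM, with Thy1 at 0 in every library. Of the endothelial markers Egfl7 rose and of the hepatocyte markers Trf rose, while the endothelial marker Pecam1 stayed at or under 5.62 CPM and the hepatocyte marker Alb at or under 7.40 CPM in every library. Macrophage, lymphocyte and cholangiocyte genes summed to at most 21.8, 6.11 and 44.7 CPM, with Marco and C1qc, 5 lymphocyte genes and 3 cholangiocyte genes at 0 in every library. Their part in the results was not tested.

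Among the cyclases, 4 isoforms made up most of the signal in DMSO. Levels of different genes are compared here as CPM per kilobase of the deposited transcript length. Adcy6 (chr15:98589986-98607633 in mm10, minus strand) stood at 7.05, 7.22 and 3.95 CPM per kb in DMSO A, B and C. Adcy3 (chr12:4133397-4213524, plus strand) stood at 5.46, 5.38 and 4.32 CPM per kb in the same libraries. The ranges of this calcium-inhibited and this calcium-stimulated isoform overlapped, and Adcy6 was the higher in 2 of 3 DMSO libraries, so their order is not settled by these levels. Adcy9 (chr16:4284886-4420498, minus strand) followed at 2.65, 2.56 and 2.47 CPM per kb. Adcy5 (chr16:35155636-35304549, plus strand), the second calcium-inhibited isoform, stood at 2.52, 2.25 and 2.29 CPM per kb. By the deposited lengths, Adcy3 was above Adcy9 in 6 of 6 libraries with no overlap in DMSO. Adcy9 and Adcy5 overlapped in DMSO. The distance of Adcy9 from both depends on the transcript length used, as given below with the shares.

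The beta-gamma-stimulated isoforms were scarcer. Adcy4 (chr14:55769058-55784072, minus strand) stood at 0.50, 0.607 and 1.16 CPM per kb in DMSO A, B and C, below Adcy5 in 6 of 6 libraries. Adcy7 (chr8:88272403-88329962, plus strand) stood at 0.503, 0.615 and 0.668 CPM per kb. Adcy2 (chr13:68620043-68999541, minus strand) stood at 0.662, 0.242 and 0 CPM per kb. From Adcy4 downwards, each isoform overlapped its neighbour in the order. Adcy2 had no count in either C library. The floor of DMSO C, 1.02 CPM, lies between its 2.77 CPM in DMSO A and its 1.01 CPM in DMSO B.

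Adcy1 and Adcy8, both calcium-stimulated and best known from neurons, were at the edge of detection. Adcy1 (chr11:7063489-7178505, plus strand) had 6 counts in forskolin A, 9 in DMSO B and 0 elsewhere. Adcy8 (chr15:64699035-64922296, minus strand) had 11 counts in forskolin A, 2 in forskolin B, 3.5 in DMSO B and none elsewhere. Neither passed the filter on low counts, and no fold change is given for them. Adcy3 was thus the calcium-stimulated isoform with a level above the floor in every library.

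Gnas (chr2:174327768-174346742, plus strand) was abundant. It stood at 139, 125 and 178 CPM per kb in DMSO A, B and C and at 145, 139 and 222 CPM per kb in forskolin A, B and C, highest in the C library of each group. Its mean level in DMSO was above that of 96.6% of tested genes, whereas Adcy6 was above 34.7% and Adcy3 above 31.3%. Per kilobase, Gnas was 7.19, 6.57 and 12 times the sum of all 9 cyclases in DMSO A, B and C. These ratios use the deposited Gnas length of 3886 bases, and a shorter length would raise them. The listed transcript begins upstream of the first coding exon of Gs alpha, and its coding sequence was not examined here. Of 16 protein-coding Gnas transcripts in GENCODE M21, 11 begin more than 10 kb upstream, as those of XL alpha s and NESP55 do, and together they hold 35.9% of its exon bases, so the count can hold reads of those transcripts; their expression was not measured here. Nespas, the antisense RNA of the locus, had 11 counts in DMSO B, 3 in forskolin B and none elsewhere.

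**Figure D1:**
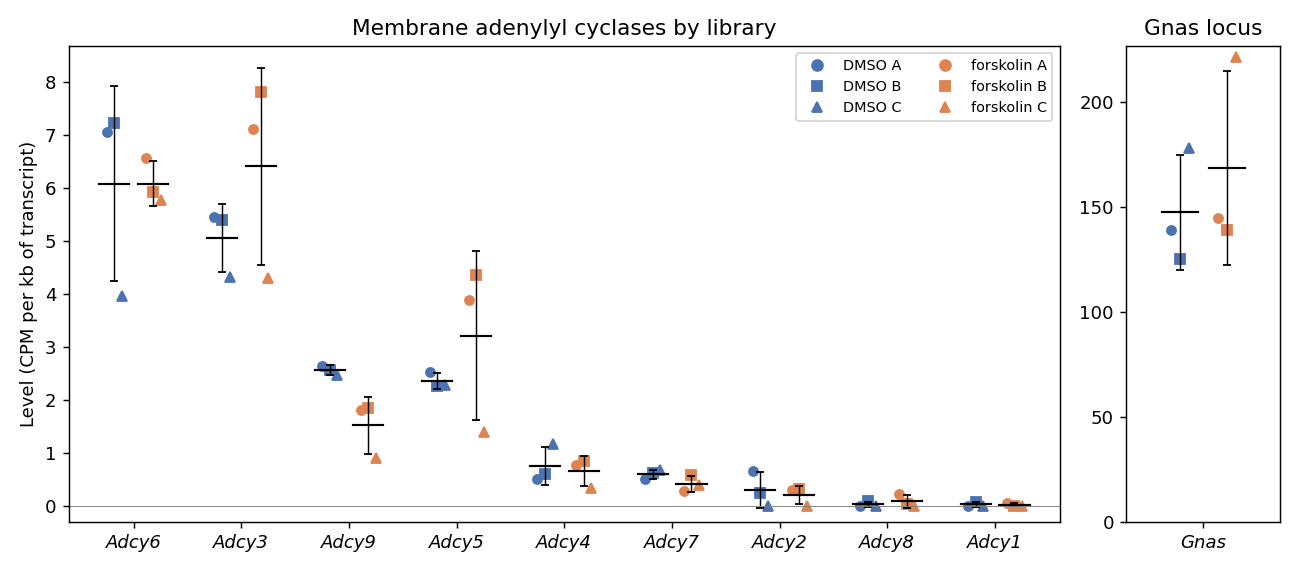
Level of each membrane cyclase gene (left) and of Gnas (right) in CPM per kb of transcript, on linear axes with different scales. Points are single libraries, bars are the mean and SD of 3 libraries; Adcy6 and Adcy3 lead the cyclases, Adcy9 lies lower in the 3 forskolin libraries than in the 3 DMSO libraries, and Gnas lies between 125 and 222.

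Some of these counts can hold reads of an overlapping gene, since the sources used here do not state how strand was handled. Cenpo, a centromere protein gene on the opposite strand, shares 1380 exon bases with the GENCODE transcript matched to the Adcy3 row, 29.2% of its length. Cenpo itself averaged 7.69 ± 2.73 CPM in DMSO and 6.19 ± 3.36 CPM after forskolin (mean ± SD, n = 3), against 23.8 ± 2.99 and 30.1 ± 8.74 CPM for Adcy3. Gm29331 overlaps 10.02% of the Adcy6 transcript, Gm35161 overlaps 4.49% of the Adcy2 transcript and Gm20721 overlaps 37.6% of the Gnas transcript, all from the opposite strand. These 3 have no row under these symbols among the deposited counts, so their levels could not be assessed. The other 6 cyclase genes share no exon base with another gene.

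As shares of the summed cyclase level in DMSO, Adcy6 held 33.7 ± 6.16%, Adcy3 28.5 ± 0.487%, Adcy9 14.6 ± 1.76% and Adcy5 13.4 ± 1.81% (mean ± SD, n = 3). Adcy4 held 4.53 ± 2.86% and Adcy7 3.44 ± 0.963%, and the remaining 3 isoforms at most 1.57% each. The place of Adcy9 depends on the transcript length. The deposited length is 7827 bases and that of the matched GENCODE transcript 4507 bases. GENCODE lengths were an alternative chosen after seeing the data. With them Adcy9 held 23.6%, close to the 26.5% of Adcy3, and Adcy5 held 8.99%.

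Among the calcium-inhibited isoforms, the share of Adcy5 was 18.5%, 20.1% and 10.6% in forskolin A, B and C against 13%, 11.8% and 15.4% in DMSO A, B and C. That of Adcy6 was 31.3%, 27.3% and 44.1% against 36.5%, 37.9% and 26.6%. Forskolin A and B were above every DMSO library for Adcy5 with forskolin C below, whereas for Adcy6 forskolin C was the highest of all 6, and the groups overlapped for both genes. The share of Adcy3 was 33.9%, 36.0% and 32.9% with forskolin and 28.2%, 28.3% and 29.1% in DMSO, with no overlap. That of Adcy9 was 8.62%, 8.53% and 6.84% with forskolin and 13.7%, 13.5% and 16.6% in DMSO, also with no overlap. These are 2 of 9 isoforms. Shares in a library sum to a fixed total, so a lower Adcy9 share raises the others and the 2 are not independent. By CPM the groups overlapped for Adcy3 and not for Adcy9, where 20.2% of all tested genes had CPM ranges that did not overlap. No background was computed for shares, so the count is not read as a result. With 3 against 3 libraries an exact two-sided permutation test cannot go below p = 0.1, so no test of the shares is given.

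**Figure D2:**
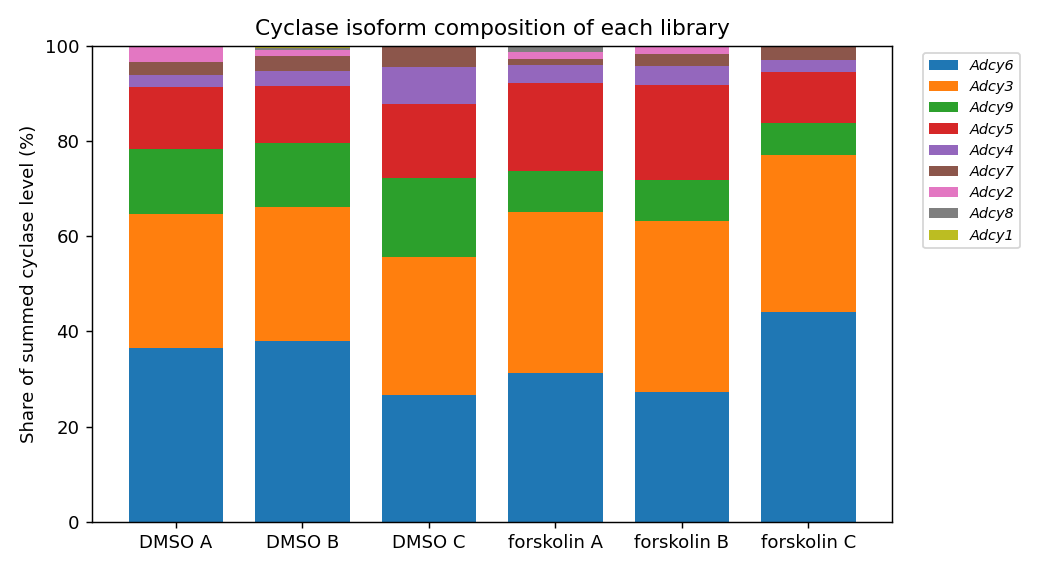
Share of each isoform in the summed cyclase level (CPM per kb) of each library, in percent, stacked from Adcy6 at the bottom to Adcy1 at the top. The Adcy9 band is 13.5% to 16.6% in the DMSO libraries and 6.84% to 8.62% in the forskolin libraries, while the Adcy6 band moves between 26.6% and 44.1% without separating the groups.

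The comparison of forskolin with DMSO asked whether 3 h of direct cyclase activation came with a change in the RNA of the cyclases or of Gs alpha. No member passed the test. With edgeR's quasi-likelihood F statistic and an adjusted p of 0.05, 0 of the 8 tested members were called. Of all 12233 tested genes 2.80% were called, 2.22% higher (272) and 0.572% lower (70). Neither DESeq2 nor limma-voom nor edgeR's likelihood ratio test called a member (0 each), and the fit without both C libraries called 0 too. At an unadjusted p under 0.05, edgeR had 1 member, Adcy9, where 12.1% of all tested genes were. The median log2 change was −0.06 over the 8 members and 0.005 over all tested genes, with 3 members above 0 and 5 below.

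Adcy9, the isoform that responds weakly to forskolin, had the smallest p. It stood at 20.7, 20.1 and 19.3 CPM in DMSO A, B and C and at 14.2, 14.5 and 7.0 CPM in forskolin A, B and C. All 3 forskolin libraries were below all 3 DMSO libraries, with forskolin C the lowest; among all tested genes, 9.46% had their forskolin range wholly below DMSO. The log2 change was −0.70 ± 0.30 (SE, 95% interval −1.37 to −0.04, edgeR adjusted p = 0.374). It was −0.48 without forskolin C and −0.51 without both C libraries (edgeR adjusted p = 0.413 and 0.229).

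Ratios of counts within a library do not depend on how libraries are scaled. Of the reads of Adcy3 and Adcy9 together, Adcy9 had 44.7%, 44.2% and 48.7% in DMSO A, B and C, with 95% Wilson intervals of 39.3% to 50.1%, 39.7% to 48.8% and 39.8% to 57.7%. In forskolin A, B and C it had 29.8%, 28.3% and 25.7%, with intervals of 25.8% to 34.1%, 24.7% to 32.2% and 16.9% to 37.0%. The intervals cover counting error only, with reads taken as independent. This pair was singled out after its values were seen. For the 21 pairs of the 7 tested cyclases, the log2 ratio was taken from scaled CPM with 0.5 CPM added, so it depends in part on the scaling. It did not overlap between the groups in 3 pairs, those of Adcy9 with Adcy6, Adcy3 and Adcy5. These 3 share Adcy9, so they are not separate observations. Ratios of other gene pairs were not counted. Among single tested genes, 20.2% had CPM ranges that did not overlap. The pair count is a description, and part of the Adcy3 reads can be of Cenpo.

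For Adcy5 and Adcy3 the forskolin libraries differed among themselves. Adcy5 stood at 12.7, 11.3 and 11.5 CPM in DMSO A, B and C and at 19.6, 21.9 and 7.0 CPM in forskolin A, B and C. Forskolin A and B were above all DMSO libraries and forskolin C was below them. The log2 change was 0.50 ± 0.38 (edgeR adjusted p = 0.721), 0.81 without forskolin C (edgeR adjusted p = 0.137) and 0.79 without both C libraries (edgeR adjusted p = 0.0544). It was 0.22 without forskolin B (edgeR adjusted p = 0.942) and 0.35 without forskolin A (edgeR adjusted p = 0.936). Adcy3 stood at 25.7, 25.3 and 20.3 CPM in DMSO and at 33.4, 36.7 and 20.2 CPM with forskolin. Its log2 change was 0.36 ± 0.25 (edgeR adjusted p = 0.679), 0.55 without forskolin C (edgeR adjusted p = 0.232) and 0.46 without both C libraries (edgeR adjusted p = 0.133). It was 0.19 without forskolin B (edgeR adjusted p = 0.921) and 0.28 without forskolin A (edgeR adjusted p = 0.902). Forskolin C minus the mean of forskolin A and B was −1.50 on the log2 scale for Adcy5, a difference below which 7.2% of tested genes lay, and −0.78 for Adcy3. The part of depth in this was not tested.

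Adcy6 and Gnas had the narrowest intervals. Adcy6 stood at 42.3, 43.4 and 23.7 CPM in DMSO A, B and C and at 39.4, 35.5 and 34.6 CPM in forskolin A, B and C, a log2 change of −0.02 ± 0.23 (95% interval −0.53 to 0.50, edgeR adjusted p = 0.997). Gnas stood at 540, 486 and 692 CPM in DMSO and at 562, 540 and 861 CPM with forskolin, a log2 change of 0.19 ± 0.20 (interval −0.26 to 0.65, edgeR adjusted p = 0.845) and −0.05 without forskolin C. The interval of Adcy3 was −0.20 to 0.91. For these 3 members the interval lies within 1 log2 unit of no change.

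The scarce isoforms allowed no such bound. Adcy4 stood at 1.75, 2.13 and 4.07 CPM in DMSO A, B and C and at 2.71, 2.97 and 1.17 CPM with forskolin, the last from 3 counts. Its log2 change of −0.11 ± 0.77 was 0.16 without forskolin C and 0.29 without DMSO C. Adcy7 stood at 3.06, 3.75 and 4.07 CPM in DMSO and at 1.67, 3.53 and 2.33 CPM with forskolin (−0.51 ± 0.65). Adcy2 stood at 2.77, 1.01 and 0 CPM in DMSO and at 1.25, 1.30 and 0 CPM with forskolin (−0.47 ± 1.21). Their intervals reached from −1.82 to 1.60, −1.96 to 0.95 and −3.16 to 2.21, each wider than 1 log2 unit in at least one direction.

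The summed cyclase level was 19.3, 19.0 and 14.9 CPM per kb in DMSO A, B and C and 21, 21.7 and 13.1 CPM per kb in forskolin A, B and C. The C libraries held the lowest sum of each group and the groups overlapped. The ratio of the group means was 0.07 on the log2 scale. It was 0.27 without forskolin C and −0.03, −0.06 and −0.05 without forskolin A, forskolin B and DMSO C, so its direction rests on single libraries.

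**Figure D3:**
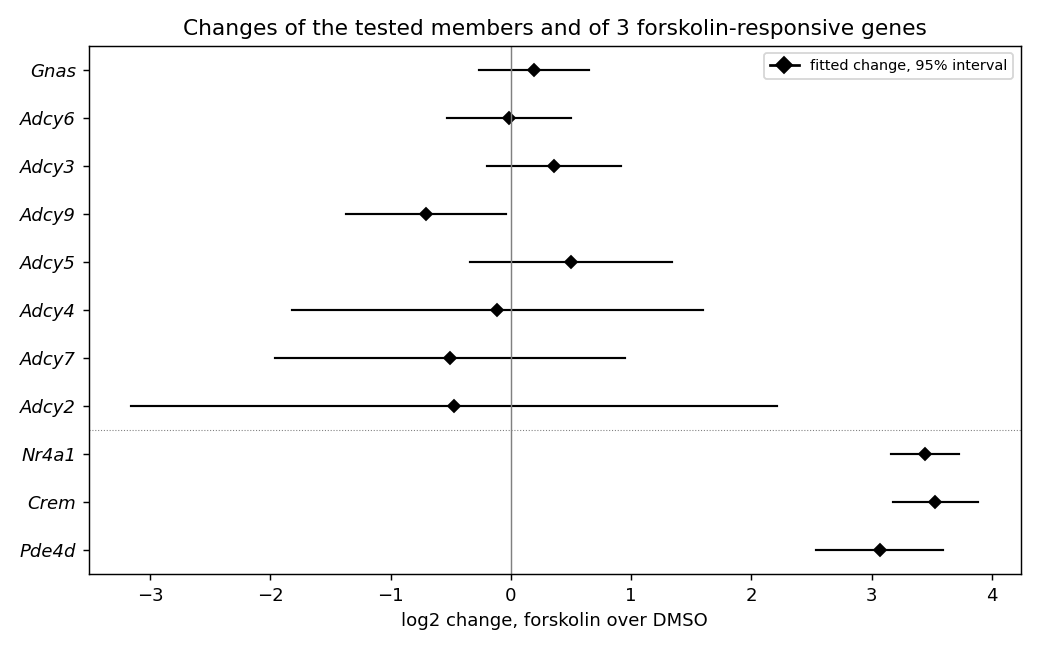
Fitted log2 change (diamonds) with approximate 95% intervals (lines) for the 8 tested members and, below the dotted line, for 3 genes that rose with forskolin. The intervals of Gnas, Adcy6 and Adcy3 lie within 1 log2 unit of 0, those of Adcy4, Adcy7 and Adcy2 are wide, and Nr4a1, Crem and Pde4d lie at 3.07 to 3.53.

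The start regions of Gnas and Adcy9 are shown beside that of Nr4a1, a gene that rose, because CREB, the transcription factor activated by cAMP and protein kinase A, binds the motif TGACGTCA and its half-site TGACG. The 250 bases upstream of the start of each deposited transcript are given 5′ to 3′ on the gene's strand (RefSeq, GRCm38.p6), with each half-site, TGACG or its reverse complement CGTCA, in capitals. The Gnas window ends at the start of the listed transcript, upstream of the first coding exon of Gs alpha; it lies on the plus strand at chr2:174327518-174327767, with Adcy9 on the minus strand at chr16:4420499-4420748 and Nr4a1 on the plus strand at chr15:101266596-101266845.
Gnas: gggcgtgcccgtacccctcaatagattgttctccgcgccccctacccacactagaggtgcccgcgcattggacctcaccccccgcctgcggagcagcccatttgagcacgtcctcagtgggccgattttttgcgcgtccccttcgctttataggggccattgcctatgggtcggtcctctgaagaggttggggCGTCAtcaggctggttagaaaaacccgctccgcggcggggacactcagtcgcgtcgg
Adcy9: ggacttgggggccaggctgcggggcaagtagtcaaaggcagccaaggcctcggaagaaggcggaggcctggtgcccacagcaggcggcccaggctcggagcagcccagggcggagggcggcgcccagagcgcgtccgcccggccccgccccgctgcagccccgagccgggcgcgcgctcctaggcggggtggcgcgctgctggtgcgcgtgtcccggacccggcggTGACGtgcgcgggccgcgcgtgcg
Nr4a1: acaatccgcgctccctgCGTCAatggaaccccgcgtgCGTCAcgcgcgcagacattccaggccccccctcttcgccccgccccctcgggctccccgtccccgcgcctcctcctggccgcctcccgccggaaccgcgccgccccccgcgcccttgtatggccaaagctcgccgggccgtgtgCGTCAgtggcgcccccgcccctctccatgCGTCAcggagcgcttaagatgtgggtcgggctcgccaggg

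Nr4a1 has 4 half-sites in its window, which 0.14% of the 32851 upstream windows in the RefSeq table match or exceed, while Gnas and Adcy9 have 1 each, at −57 and −24 from their starts. Pde4d and Pde4b, which also rose, show no such number: the 1 window of Pde4d holds 0 half-sites, and of the 4 windows of Pde4b 1 holds a half-site. Crem had no window, and the other genes that rose were not examined. GC content differed between windows, at 74.4% for Nr4a1, 78.8% for Adcy9 and 63.2% for Gnas against 38.8% for Pde4d. Its median over all windows was 52.4%. The window before the RefSeq Gnas start nearest the coding exon holds 1, at −216. A half-site on either strand was found in 17.8% of all windows, and the full motif, which counts as 2 half-sites, in 1.55%. The table held 14 windows for 8 of the 10 members, with none for Adcy6 and Adcy8. Of these windows 5, in Gnas, Adcy9 and Adcy7, held a half-site and 0 held the full motif. The Gnas windows that begin at chr2:174327499 and chr2:174327518 overlap and hold the same half-site, which is thus counted more than once. A match of letters is a description and not a binding site.

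Among other genes of G protein, cyclase and cAMP signalling, 1 of 61 tested rose and 0 fell, against 2.22% of all tested genes higher and 0.572% lower. These lists also hold guanylyl cyclases, which make cGMP, and the other G protein alpha subunits, so they are wider than the adenylyl cyclase pathway. The gene that rose was Rgs2, which encodes a GTPase activator of Gq that is also known to inhibit AC3, AC5 and AC6. Rgs2 stood at 0, 1.22 and 2.03 CPM in DMSO A, B and C and at 37.9, 34.4 and 22.5 CPM in forskolin A, B and C, with every forskolin library above every DMSO library. Its log2 change was 5.07 ± 0.62 (edgeR adjusted p = 0.00117). The 61 genes had a median log2 change of 0.04. When both C libraries were left out, 7 of 65 tested genes passed, near the share of 9.76% among all genes tested in that fit. Rgs2, Gpsm1, Gucy1a1, Gucy1b1, Prkar2b and Ppp3ca were higher and Akap9 was lower.

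The other G protein alpha subunits gave 0 calls of 9 tested by edgeR, with 0 at an unadjusted p under 0.05. Those that inhibit cyclase were led by Gnai2, with a DMSO mean of 329 ± 22.6 CPM and a forskolin mean of 351 ± 4.48 CPM (SD, n = 3), and Gnai3, at 404 ± 46.0 and 442 ± 60.2 CPM. Per kilobase in DMSO these stood at 152 and 124 CPM, beside 147 for Gnas by the 3886 bases of its listed transcript. A shorter transcript length would raise the Gnas value. In plain CPM Gnas averaged 573 in DMSO. Gnal, the olfactory relative of Gs alpha, stood at 2.08 CPM per kb. Beta and gamma subunits gave 0 calls of 11 (1 at an unadjusted p under 0.05), led by Gnb2 and Gnb1 at 178 and 177 CPM per kb. The calcium sensors and entry genes gave 0 of 11 (1 at an unadjusted p under 0.05), led by the calmodulin gene Calm2 at 190 CPM per kb, with a log2 change of 0.24 ± 0.18.

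Scaffolds that hold cyclases gave 0 calls of 6, led by the anchoring protein genes Akap12 (−0.08 ± 0.27 on the log2 scale) and Akap9 (−0.21 ± 0.12), with 0 at an unadjusted p under 0.05. Soluble cyclase, Adcy10, which bicarbonate activates and forskolin does not, had 3 to 12.5 counts per library and did not pass the filter. The cAMP exporter gene Abcc4 had means of 168 ± 2.98 CPM in DMSO and 163 ± 29.0 CPM after forskolin, and its relative Abcc5 at −0.17 ± 0.20 on the log2 scale. Guanylyl cyclases, which make cGMP, gave 0 calls of 5 (1 at an unadjusted p under 0.05). Their leading member Gucy1b1, a subunit of the nitric oxide receptor, stood at 134 ± 24.2 and 170 ± 26.4 CPM, and its partner Gucy1a1 at 46.2 ± 23.7 and 99.6 ± 28.8 CPM (log2 change 1.09 ± 0.34, edgeR adjusted p = 0.183). The cAMP effectors gave 0 calls of 8 and 0 at an unadjusted p under 0.05, led by the protein kinase A regulatory subunit genes Prkar1a (0.19 ± 0.13) and Prkar2a (0.15 ± 0.10).

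**Figure D4:**
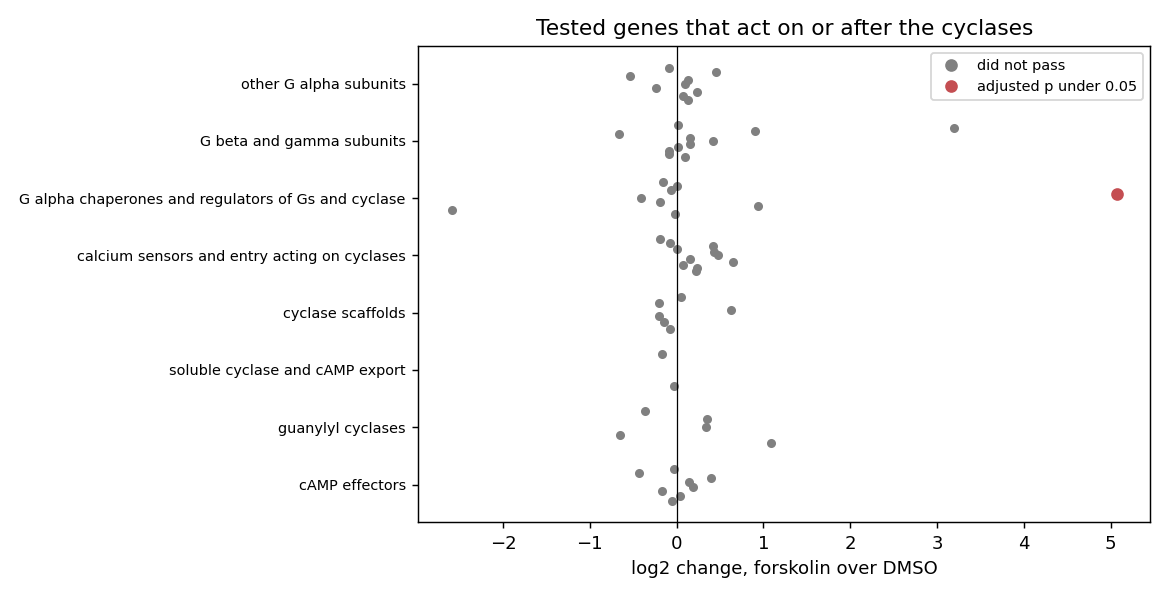
Log2 change with forskolin of each tested gene in 8 lists of G protein, cyclase and cAMP signalling genes, guanylyl cyclases included, 1 point per gene. Rgs2, at 5.07, is the 1 point that passed; the rest, among them the gamma subunit gene Gng4 at 3.19 and the cyclase-associated protein gene Cap2 at −2.59, both of few counts, did not.

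By the root mean square difference of centred log2 CPM over the 6 libraries, the tested genes most like Gnas were Ctsl (0.03), Pdia3 (0.03) and Psmb6 (0.04), and those most like Adcy6 were S1pr2 (0.04), Dcaf5 (0.06) and Strada (0.07). They are the nearest of 12233 genes over only 6 libraries. Gnas lay 0.64 log2 units above the mean of A and B in forskolin C and 0.43 in DMSO C. Shared regulation was not tested.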

How the data were processed

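In the table that the authors deposited, each gene has exon counts, a RefSeq transcript, an mm10 position and a length. The submitters' processing notes name STAR, HOMER and mm10. For versions, counting rule and annotation, the sources used here give nothing. These deposited expected counts come in steps of 0.5 and were rounded to whole numbers, ties to even, for the tests. The deposited transcript length in bases served only to divide CPM. With edgeR 4.0.16 (R 4.3.3), filterByExpr left 12233 genes, which were scaled by TMM and tested with the robust quasi-likelihood F test over all 6 libraries, with Benjamini-Hochberg adjustment over all tested genes. SEs are the absolute log2 fold change over the square root of F, and intervals use the t distribution; both are approximate. CPM of cell type markers are counts over column totals. Log2 ratios of cyclase pairs, and log2 differences of C libraries from A and B, were taken after adding 0.5 CPM. DESeq2 1.42.0 and limma 3.58.1 were alternatives. The fitting step was tested on simulated counts. The members, lists and alternatives were chosen with earlier results of these data known. All members are named; from each list, up to 3 called genes by p were named, or else the 2 tested genes highest per kilobase; 1 gene that this rule names is not reported here. Nr4a1, Crem and Pde4d served as the check of treatment. Gnal, Adcy10, Nespas, Pde4b, Gng4, Cap2, neighbours of members, single markers and genes called only in alternatives were added after their values were seen. Gene overlaps are from GENCODE M21 (GRCm38).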

Additional observations from a re-analysis of the deposited data

How the results depend on the processing

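The count of members called was 0 under all 17 alternative fits. The count of pathway genes called, 1 in the main fit, was 3 with no filter, 2 by DESeq2, 3 by limma-voom, 4 with sample quality weights, 4 by the likelihood ratio test and 7 without both C libraries, and 1 without any single library. Of all tested genes, 342 were called in the main fit, 620 with no filter, 553 by DESeq2, 984 with sample quality weights, 648 by the likelihood ratio test and 1229 without both C libraries; without single libraries the count lay between 185 (without DMSO B) and 485 (without forskolin C), with 189 when forskolin A, 207 when forskolin B and 203 when DMSO A was left out. With the replicate letter as a block, 5 pathway genes and 649 of all genes were called. The letters are not shown to pair the samples: same-letter deviations from the group means correlated at 0.048, 0.133 and 0.15 across genes for A, B and C. Forskolin B and forskolin C each correlated best with the DMSO library of their own letter, whereas forskolin A correlated best with DMSO B (0.103). These log2 changes of members turned sign: Adcy2 at 0.63 without DMSO A; Adcy4 at 0.24 by limma-voom, 0.40 with sample quality weights, 0.16 without forskolin C, 0.29 without DMSO C and 0.54 without both C libraries; Adcy6 at 0.0014 with the replicate block, 0.0081 without forskolin B, 0.0101 without forskolin C, 0.10 when DMSO A and 0.13 when DMSO B was left out; and Gnas at −0.0479 without forskolin C. Over the fits without 1 library the range was −0.355 to 0.29 for Adcy4, −0.23 to 0.13 for Adcy6 and −0.0479 to 0.34 for Gnas. It was 0.19 to 0.55 for Adcy3, 0.22 to 0.81 for Adcy5, −0.88 to −0.27 for Adcy7 and −0.86 to −0.48 for Adcy9. Adcy2 ranged from −0.95 to 0.63, but it passed the filter only without forskolin C, DMSO A or DMSO C. The cause of these changes was not tested. The floor of 3 counts was 1.02 CPM in DMSO C and 1.17 CPM in forskolin C.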
